A study of Mus musculus with 16 samples.

Results

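The circadian clock genes followed here are the activator Arntl (also called Bmal1) and Per2, Dbp, Hlf, Ciart and Usp2. The last 5 are described as peaking opposite to Arntl over the day and are called the opposite genes for that timing. In these libraries not all 5 ran against Arntl. The 6 genes are among the 831 genes in the deposited table of mouse tibialis anterior muscle. Each was found by its Ensembl identifier and the symbol paired with it in GENCODE M21. The 6 were picked because of their levels across these same 4 genotypes and single libraries, so those levels and the differences between genotypes are described below with their spread and standard error (SE) and with no p-value.

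In the clock of mammalian cells, ARNTL pairs with CLOCK, binds E-box sequences and switches on its own repressors, among them the Per genes and Ciart. ROR factors and the REV-ERB repressors act on ROR elements in Arntl, which places its peak opposite to that of E-box genes. The loop also drives output genes: Dbp and Hlf encode transcription factors of the PAR bZIP family, and Usp2 encodes a ubiquitin protease that is rhythmic in many organs. Skeletal muscle holds such a clock in its fibres, and the other cells of a muscle hold one too.

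RNA of the tibialis anterior, a muscle of the lower leg, was sequenced at postnatal day 30 in 4 libraries each of Control (wild type), miR-133b-/- (lacking the muscle microRNA miR-133b), mdx (a mutation in the dystrophin gene, a model of Duchenne muscular dystrophy) and mdx/miR-133b-/- (both changes). Whether each library is 1 animal is not stated. The labels give an age but no hour of collection and no light schedule, so genotype and hour of collection cannot be told apart for genes that change over the day. Values are read counts that the authors multiplied by 1 factor per library and are called scaled reads here. Reads in the listed genes numbered 2356990 to 6000033 per library, and the full depth is unknown. The table is a selected list: every listed gene differs by at least 1.72-fold between the double mutant and miR-133b-/- means, so that difference is a condition of being listed. As a check of the tissue, 4 of 8 fast fibre markers are listed and their summed level was 256312 scaled reads or more in every library. The summed level of 6 listed regenerating fibre markers was 203 to 304 scaled reads in Control and 1659 to 6043 in mdx.

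Arntl was high in the double mutant and low in the other 3 genotypes. Its gene lies at chr7:113207465-113314126 (GRCm38, plus strand; ENSMUSG00000055116). The Control libraries 1 to 4 stood at 144, 104, 112 and 94.8 scaled reads, and the miR-133b-/- libraries at 123, 156, 109.6 and 106.6. The mdx libraries stood at 160.0, 146, 229 and 136, and those of mdx/miR-133b-/- at 368, 529, 289 and 485. Every double mutant library lay above every other library, while the ranges of Control, miR-133b-/- and mdx overlapped one another. The mean of Control was 114 ± 21.2 (SD, n = 4 in each genotype), and that of miR-133b-/- was 124 ± 22.4. The mean was 168 ± 42.1 among mdx libraries and 418 ± 109.5 among double mutants. Only 0.439% of the exon bases of Arntl are shared with another gene, an antisense model.

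The sequence that carries the opposite timing of Arntl in textbook accounts is the ROR element, and 1 match to TAGGTCA lies 30 bases after an annotated Arntl start site. It is shown with its flanks, with the match in capitals.
Arntl, chr7:113207530-113207557, plus strand: aaggcagaaagTAGGTCAgggacggagg
RefSeq promoter windows (GRCm38.p6, 250 bases before to 50 bases after a start site) were searched on both strands for the ROR elements TAGGTCA and for TGGGTCA, for the E-box CACGTG, for its variant form CACGTT, for the D-box forms TTATGTAA and TTACGTAA, and for the cAMP response element TGACGTCA. TAGGTCA was present in 2.61% of 32851 such windows. No other searched motif was found in the 2 Arntl windows, which speaks only of these letters in these windows.

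Ciart encodes a repressor of ARNTL and CLOCK and was low in both genotypes with the mdx mutation. It lies at chr3:95878503-95882251 (minus strand; ENSMUSG00000038550). The 4 Control libraries gave 77.2, 60.0, 192 and 212 scaled reads, and the miR-133b-/- libraries 65.0, 248, 137 and 116. In mdx the values were 28.04, 38.5, 24.3 and 28.6, and in mdx/miR-133b-/- they were 13.3, 61.0, 28.3 and 42.1. All mdx values lay below all Control values, whereas double mutant 2, at 61.0, was level with Control 2. Among the 6 genes Ciart varied most within genotypes, with a pooled SD of 0.77 on the log2 scale, larger than that of 93.3% of listed genes. It also had the fewest reads, 29 in double mutant 1 to 347 in miR-133b-/- 2, so counting error is largest here.

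The Ciart promoter held 3 E-boxes, and those of Arntl, Dbp, Hlf and Usp2 held none; Per2 was not searched. Each E-box is shown because E-boxes are where ARNTL binds. The capitals mark CACGTG, which reads the same on both strands.
Ciart, 116 bases before the start site, chr3:95882328-95882355, minus strand: gcatctagagtCACGTGttgccggtaag
Ciart, 58 bases before it, chr3:95882270-95882297, minus strand: gcagggggaggCACGTGcagaaccgcac
Ciart, 44 bases before it, chr3:95882256-95882283, minus strand: gtgcagaaccgCACGTGtctgggagggg
At least 1 CACGTG was present in 7.15% of all windows and in 6.37% of the 848 windows of listed genes, and 3 or more in 0.0883% of all windows. Hlf held TGACGTCA 9 bases before its start site, which 1.79% of windows hold, and the windows of Dbp and Usp2 held none of the searched motifs.

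Per2, a core repressor of the clock, was lowest in the double mutant. The gene lies at chr1:91415982-91459324 (minus strand; ENSMUSG00000055866). Control libraries stood at 235, 335, 669 and 554 scaled reads, and those of miR-133b-/- at 441, 535, 640.0 and 518. The mdx libraries stood at 253.5, 246, 329 and 269, and the double mutants at 81.2, 91.4, 231 and 208. The double mutant values all lay below those of the other 12 libraries, by a narrow gap: the highest, 231 in double mutant 3, is next to 235 in Control 1. Control and mdx overlapped, and the Control libraries themselves spanned 2.85-fold.

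Dbp separated the double mutant from the other genotypes by the widest margin. Its gene (chr7:45705088-45710203, plus strand; ENSMUSG00000059824) gave 1555, 1485, 1244 and 824 scaled reads among Control libraries and 1883, 776, 1624 and 1653 in miR-133b-/-. In mdx it gave 1085, 1073, 895 and 973, and in mdx/miR-133b-/- 213, 188, 454 and 264. The highest double mutant value, 454, was well under the lowest value elsewhere, 776 in miR-133b-/- 2, while Control, miR-133b-/- and mdx overlapped. Over 18.0% of its exon bases Dbp overlaps Sphk2 on the opposite strand, and whether counting used strand is not given in the sources used here, so reads from that stretch are uncertain.

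Hlf, the other PAR bZIP gene, followed a different order. It lies at chr11:90336536-90390895 (minus strand; ENSMUSG00000003949) and gave 212, 302, 235 and 228 scaled reads in Control. The miR-133b-/- libraries gave 440.0, 340.5, 539 and 429, all above Control. The mdx libraries gave 119, 89.9, 64.0 and 83.6, all below Control, and the double mutants 28.4, 50.4, 161 and 84.3. Double mutant values spread 5.67-fold and covered the whole mdx range, so these neighbours in the order did not differ beyond their spread.

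Usp2 was the most abundant and the steadiest of the 6. Its gene (chr9:44067021-44095627, plus strand; ENSMUSG00000032010) gave 4159.7, 4698, 5749.7 and 5498 scaled reads among Control libraries and 6564, 6453, 5951 and 5424 in miR-133b-/-. In mdx it gave 3044, 2925, 3306 and 2793, and in mdx/miR-133b-/- 2766, 3452, 4016 and 3329. Both genotypes with the mdx mutation lay below both without it, and 4.15% of its exon bases are shared with genes on the opposite strand. Within each pair of genotypes the ranges overlapped. Its pooled SD within genotypes was 0.17 on the log2 scale, smaller than in nearly all listed genes, since only 1.20% had a smaller one. The median over listed genes was 0.37, and Arntl stood at 0.31, Dbp at 0.46, Per2 at 0.54 and Hlf at 0.58.

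**Figure D1:**
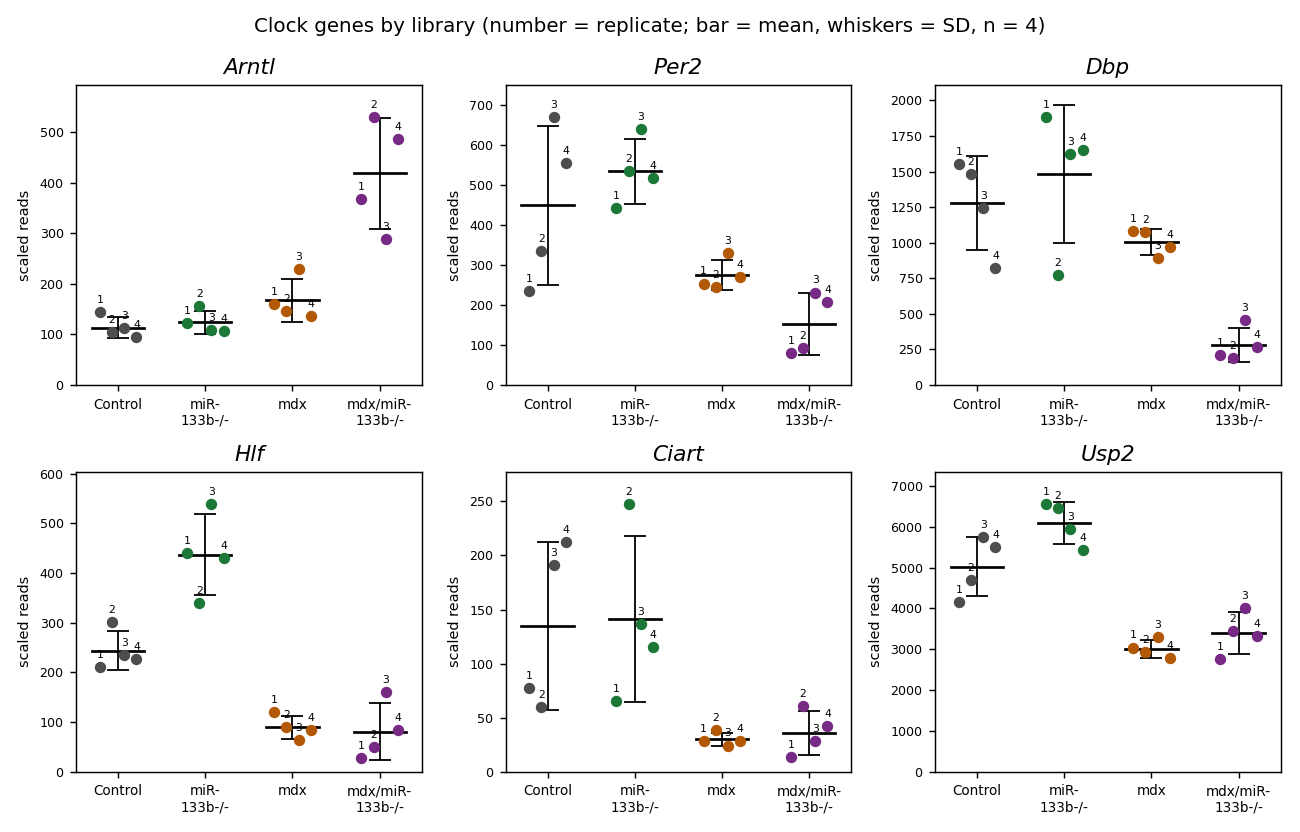
Scaled reads (y axis, linear, from 0) of the 6 clock genes in each of the 16 libraries, by genotype (x axis); points are libraries with their replicate number, bars are means and whiskers SD (n = 4). Arntl is highest and Per2 and Dbp are lowest in mdx/miR-133b-/-, while Hlf, Ciart and Usp2 are low in both genotypes with the mdx mutation.

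Levels of different genes can be set side by side only per length. Per kilobase of exon, the Control means were 1043 ± 152 scaled reads for Usp2, 427 ± 110.3 for Dbp, 76.6 ± 33.9 for Per2, 59.8 ± 34.3 for Ciart, 36.5 ± 5.97 for Hlf and 15.1 ± 2.82 for Arntl (SD, n = 4). Per2 and Ciart did not differ beyond their spread, and Arntl was the lowest of the 6. In the double mutant the order was Usp2 (704 ± 106), Dbp (93.5 ± 40.2), Arntl (55.6 ± 14.6), Per2 (26.1 ± 13.3), Ciart (15.999 ± 8.98) and Hlf (12.1 ± 8.70). Arntl had thus moved from the last to the third place in that order.

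Comparing mdx with Control shows the clock genes without dystrophin where miR-133b is present. Of the 5 opposite genes 3 were lower: Ciart 3.88-fold (log2 difference -1.96, SE 0.48), Hlf 2.76-fold (-1.46, SE 0.36) and Usp2 1.66-fold (-0.73, SE 0.16). The groups of these genes did not overlap, which among all listed genes held, in the lower direction, for 24.2%. Per2 stood at -0.60 (SE 0.33) and Dbp at -0.31 (SE 0.29), with overlapping groups, and Arntl at 0.54 (SE 0.23), also overlapping. Per2 did not pass limma's test as reported but passed as lower in 3 of 26 alternative settings, among them relative log expression factors (-0.96) and leaving out Control 1 (-0.87). In limma's test over all 831 genes, 3 of the 6 passed as lower, where 21.7% of listed genes did, and Arntl passed as higher, where 44.5% did; the genes were picked on these values and nothing is read from these counts. The pass of Arntl was not stable: it was lost in 16 of 26 alternative settings, among them relative log expression factors taken from the 831 genes (0.19) and leaving out mdx 3 (0.38). The median log2 difference of all listed genes was itself 0.44 here, and 0.09 with those factors, which gave 260 genes called higher and 270 lower in place of 370 and 180. Relative to that median Arntl stood at 0.10, Dbp at -0.75, Per2 at -1.04, Usp2 at -1.17, Hlf at -1.91 and Ciart at -2.40. Other factors shift a gene and the median nearly alike, so these distances hardly change with the scaling by construction. The median is that of a selected list, and nothing is read from the distances. Whole muscle was sequenced, so fewer cells of a type and less RNA per cell cannot be told apart. Of 10 macrophage markers 7 are listed, with a summed level of 1361 to 1815 scaled reads in Control and 5132 to 7936 in mdx. The sums of 4 listed of 6 fibroblast and matrix markers were 11334 to 21048 and 36558 to 38776. Lower in mdx were the sums of 4 listed of 8 fast fibre markers, 592292 to 730110 in Control and 375355 to 552424 in mdx. The 1 listed of 4 endothelial markers was also lower, at 1687 to 2039 and 856 to 1301. No listed marker was at 0 in any library. The part of these cells in the clock gene differences was not tested.

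Comparing miR-133b-/- with Control shows the same genes without the microRNA where dystrophin is present. The deleted microRNA is shown with its seed, bases 2 to 8, in capitals, because the seed is what pairs with a target.
mmu-miR-133b-3p, chr1:20682834-20682855 (GRCm38.p6, plus strand): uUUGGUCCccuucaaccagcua
None of the 6 genes held the seed match GGACCAA in an annotated 3' UTR, while 89 of the 788 listed genes with such a UTR did (11.3%). The 6 log2 differences ran from 0.11 for Ciart (SE 0.48) to 0.83 for Hlf (SE 0.36), with Arntl at 0.12 (SE 0.23), Dbp at 0.18 (SE 0.29), Usp2 at 0.29 (SE 0.16) and Per2 at 0.35 (SE 0.33). For Hlf, 1.78-fold higher, the groups did not overlap, which among all listed genes held, in the higher direction, for 2.77%. Hlf was picked with these values known, so nothing is read from that share. The other 5 had overlapping groups. Limma called 0 of 831 genes in this comparison (0.0%), with 84 at an unadjusted p under 0.05, and limma-voom on the reads also called 0. Leaving out single libraries turned the sign for Dbp (-0.01 to 0.47) and Ciart (-0.21 to 0.42).

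Comparing mdx/miR-133b-/- with mdx shows what differed when the microRNA was also missing in dystrophic muscle. This comparison shares its mdx libraries with that of mdx and Control. Arntl was 2.47-fold higher (log2 difference 1.30, SE 0.23), Dbp 3.80-fold lower (-1.93, SE 0.29) and Per2 1.97-fold lower (-0.98, SE 0.33), each with no overlap between groups. Absence of overlap was seen in 10.3% of listed genes in the higher direction and in 16.2% in the lower one. Hlf stood at -0.38 (SE 0.36), Ciart at 0.10 (SE 0.48) and Usp2 at 0.16 (SE 0.16), with overlapping groups. Leaving out single libraries gave -0.80 to 0.02 for Hlf and -0.21 to 0.49 for Ciart, so these differences are poorly determined. In limma's test 1 of the 6 passed as higher, where 7.46% of listed genes did, and 2 as lower, where 12.0% did; the choice of genes used these values. The pass of Per2 was lost in 11 of 26 alternative settings, for instance without double mutant 1 (-0.73) or 2 (-0.79), and those of Arntl and Dbp in none of the 26. These settings reuse the values by which the genes were picked, so the passes that stay are a description and no support. Here and for mdx against Control, the 26 leave out the grouping by the description field, which is given below.

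Some other measures moved with this comparison. Fast fibre markers, of which 4 of 8 are listed, summed to 375355 to 552424 scaled reads in mdx and 256312 to 320334 in the double mutant. The sums of regenerating fibre, macrophage, and fibroblast and matrix markers overlapped between these genotypes and ranged more widely in the double mutant. In mdx they were 1659 to 6043, 5132 to 7936 and 36558 to 38776, in that order. In the double mutant they were 809 to 7465, 3245 to 10095 and 25586 to 48683. The annotated Dbp transcript has a GC content of 61.6%, against 48.2% for Arntl, and with the linear GC and length trends of the libraries taken out, the log2 difference of Dbp became -1.32 and that of Arntl 1.22. Their part in the result was not tested beyond these values.

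The difference of differences, mdx/miR-133b-/- minus mdx less miR-133b-/- minus Control, was -2.11 for Dbp (SE 0.41), -1.34 for Per2 (SE 0.47), -1.22 for Hlf (SE 0.51) and 1.18 for Arntl (SE 0.33). Ciart at -0.01 (SE 0.68) and Usp2 at -0.13 (SE 0.23) lay near 0. Limma called 8 of the 831 genes here (0.963%), 7 of them lower (0.842%), and Dbp was among these. The difference between mdx/miR-133b-/- and miR-133b-/-, on which genes were listed, is a part of this quantity. Dbp was also picked on these levels, so nothing is read from its call or from these shares. Without miR-133b-/- 2, the library with the lowest Dbp value of its group, 110 genes were called and Arntl was among them, at 1.30. With the GC and length trend removed Dbp stood at -1.63 and was no longer called.

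Between mdx/miR-133b-/- and miR-133b-/-, the difference on which genes were listed, limma called every one of the 831 listed genes, so a call there says nothing of the clock genes. The log2 differences were 1.73 for Arntl, -0.86 for Usp2, -1.94 for Per2, -1.97 for Ciart, -2.41 for Dbp and -2.68 for Hlf.

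**Figure D2:**
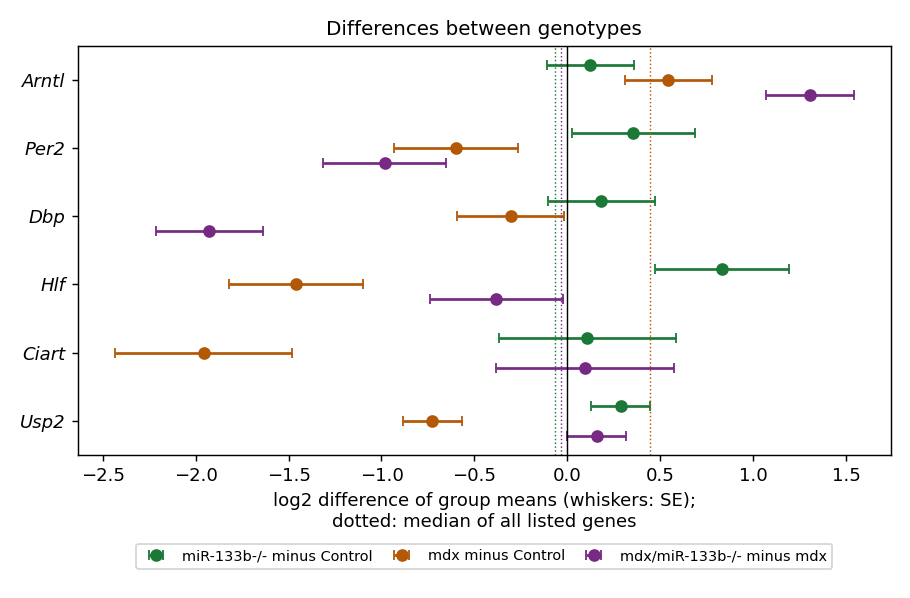
Log2 difference of group means (x axis; points, with SE as whiskers) for each of the 6 clock genes (y axis) in 3 comparisons; dotted lines give the median over the 831 listed genes in the same colour. Dbp and Per2 are lowest and Arntl highest in mdx/miR-133b-/- minus mdx, whereas Hlf, Ciart and Usp2 are lowest in mdx minus Control.

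A ratio taken within a library hardly depends on its scaling factor, which enters only through the 1 added before the logarithm. The log2 value of Arntl minus the mean log2 value of the 5 opposite genes was -1.73, -2.34, -2.71 and -2.78 in Control and -2.48, -2.25, -2.95 and -2.80 in miR-133b-/-. It was -0.95, -1.07, -0.26 and -1.05 in mdx, and 1.68, 1.55, 0.01 and 1.06 in mdx/miR-133b-/-. The 4 mdx libraries lay above all 8 libraries without the mutation, and the 4 double mutants lay above the mdx libraries. Group means were -2.39 ± 0.48, -2.62 ± 0.32, -0.84 ± 0.38 and 1.08 ± 0.76 (SD, n = 4 each). The genes were chosen as opposite to Arntl, so an order of this kind was built into the choice and was not tested. Double mutant 3 stood nearest to mdx: it had the lowest Arntl value of its group and the highest of Per2, Dbp, Hlf and Usp2. For Arntl and Dbp alone, Arntl had 6.45 to 20.1 scaled reads per 100 of Dbp in the 8 libraries without the mutation, 13.6 to 25.6 in mdx and 63.7 to 281 in the double mutants.

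**Figure D3:**
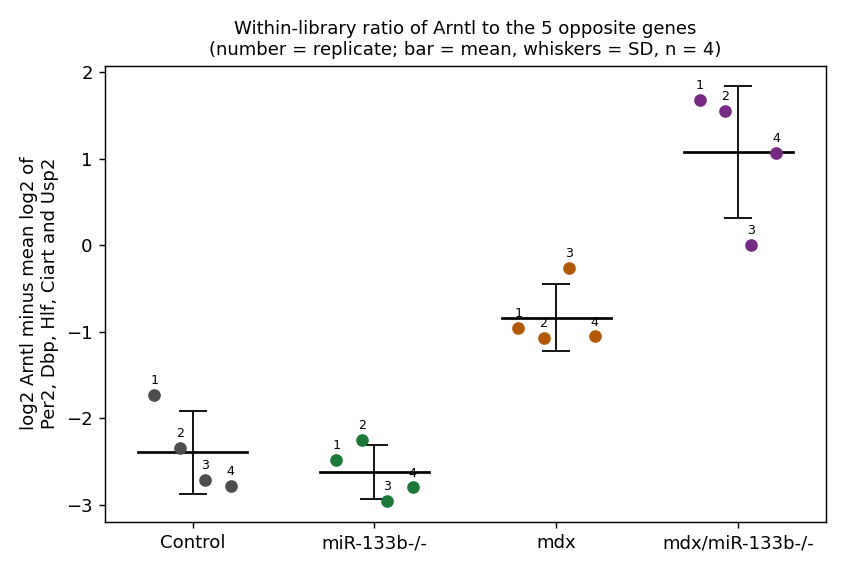
Log2 of Arntl minus the mean log2 of Per2, Dbp, Hlf, Ciart and Usp2 in each library (y axis) by genotype (x axis); points are libraries with their replicate number, bars are means and whiskers SD (n = 4). Control and miR-133b-/- lie between -2.95 and -1.73, mdx between -1.07 and -0.26 and mdx/miR-133b-/- between 0.01 and 1.68.

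Libraries of 1 genotype also differed from one another in these genes, and not as a single block. Over the 16 deviations from the group means, Dbp and Hlf went together (Pearson r = 0.66, Spearman rho = 0.66, positive in all 4 genotypes), and so did Per2 and Usp2 (r = 0.73, rho = 0.67, positive in 3 genotypes and negative in 1). Dbp and Ciart went in opposite directions (r = -0.55, rho = -0.59, negative in 3 genotypes and positive in 1), and r was -0.39 with relative log expression factors. Without the pair of libraries farthest from the median of the first gene named, r was 0.51, 0.58 and -0.51. In Control, for example, libraries 1 and 2 had the 2 highest Dbp values and the 2 lowest Ciart values, and in miR-133b-/- library 2 had the lowest Dbp and the highest Ciart value. Arntl went weakly against Dbp (r = -0.44, rho = -0.22) and Hlf (r = -0.45, rho = -0.42), and with relative log expression factors these were -0.20 each. Arntl and Ciart did not go against each other within genotypes (r = 0.19, rho = 0.07). These are descriptions over 16 libraries that share their scaling factors, among 15 pairs of genes.

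**Figure D4:**
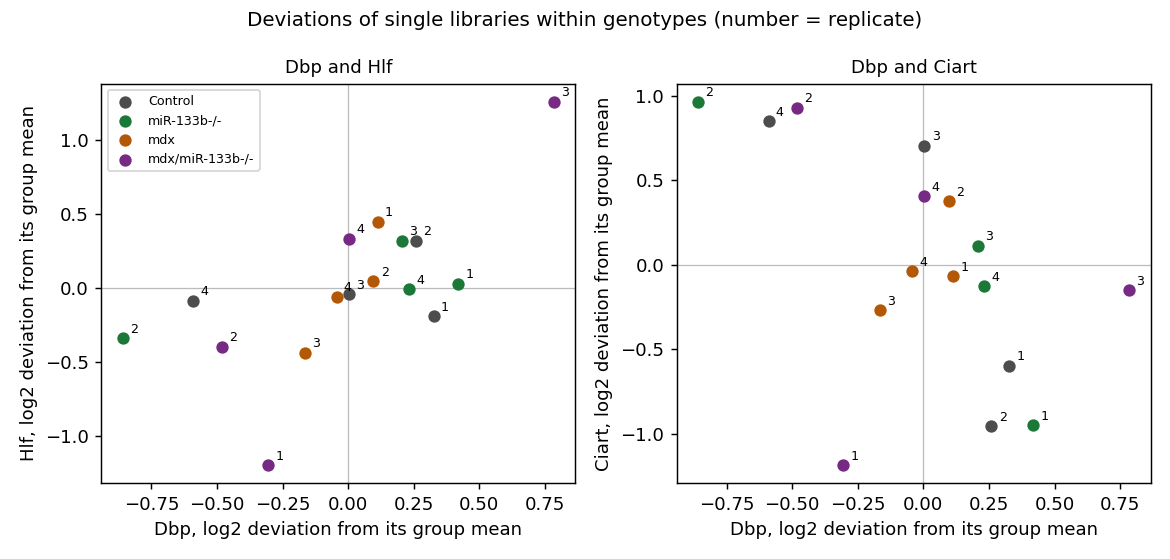
Deviation of each library from its genotype's mean, on the log2 scale, for Dbp (x axis) against Hlf (left) and Ciart (right); colours are genotypes and numbers are replicates (16 libraries). Dbp and Hlf deviate together (r = 0.66), and Dbp and Ciart in opposite directions (r = -0.55).

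Among 780 other listed genes, leaving out predicted models, those whose deviations were most like those of Arntl were Litaf (r = 0.69, rho = 0.71), Cyb5b (0.66, 0.66) and Slc8a1 (0.60, 0.46). Litaf and Slc8a1, the sodium-calcium exchanger, were also highest in the double mutant, at 214 ± 62.8 and 339.5 ± 53.1 scaled reads against 142 ± 20.8 and 235 ± 22.4 in mdx, whereas Cyb5b was highest in miR-133b-/- (3410.5 ± 904). Most like the mean of the 5 opposite genes were Mreg (r = 0.76, rho = 0.62), Efcab6 (0.76, 0.63) and Crebzf (0.73, 0.46). Without the pair of libraries farthest from the median, r was 0.59 for Mreg, 0.44 for Efcab6 and 0.52 for Crebzf, and 0.64 for Litaf, 0.59 for Cyb5b and 0.69 for Slc8a1. Mreg had means of 1157 ± 126 scaled reads in Control and 1439 ± 164 without the microRNA, against 624 ± 38.5 for mdx and 785 ± 203 for the double mutant. Efcab6 followed the same order, with means of 287 ± 75.4, 321 ± 32.6, 97.7 ± 21.6 and 116 ± 44.2. Crebzf did not, and was highest in the double mutant, at 841 ± 303 scaled reads. These genes were picked for the highest r among 780, so high values were built into the choice and nothing is read from them.

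Of 43 further genes named as clock components, clock outputs or clock-controlled muscle genes, 5 are listed and were followed. The rest, among them Per1, Cry1, Nr1d1 and Tef, are not among the listed genes, so they have no values here. From the core clock list of 18 there was Arntl2, a relative of Arntl. From 13 output genes there was Klf15, a metabolic regulator of muscle and liver, and from 12 muscle genes Tcap, a Z-disc protein, Hk2, a hexokinase, and Slc2a4, the insulin-responsive glucose transporter GLUT4. In mdx against Control 2 of the 5 fell and none rose, where 21.7% of listed genes were called lower and 44.5% higher. The median log2 difference of the 5 was -0.63 against 0.44 over all listed genes. Genes were listed by the difference between mdx/miR-133b-/- and miR-133b-/-, where all 831 were called and 4 of the 5 were lower. The median log2 difference there was -0.99 for the 5 and 0.95 over all listed genes. The listing also sets muscle with the mdx mutation against muscle without it. Low values and calls in mdx against Control were thus partly built into the listing, and nothing is read from these medians. Hk2 went from 7728 ± 3257 to 4019.9 ± 733 scaled reads (SD, n = 4 each; log2 difference -0.87, SE 0.24, limma adjusted p = 0.00375) with no overlap between groups. Klf15 went from 321 ± 191 to 149.9 ± 46.5 (-0.95, SE 0.38, limma adjusted p = 0.0363) with overlap, and it did not pass without Control 3 (-0.77), Control 4 (-0.62), mdx 2 (-0.88) or mdx 4 (-0.76). Tcap (-0.63, adjusted p = 0.0858), Slc2a4 (-0.50, 0.131) and Arntl2 (0.28, 0.439) did not pass limma's test.

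Neither miR-133b-/- against Control nor mdx/miR-133b-/- against mdx gave a call among these 5 genes. Of all listed genes, 0.0% were called in the former comparison, and 7.46% as higher and 12.0% as lower in the latter. Slc2a4 came nearest in the latter, at 8560.2 ± 1279.9 in mdx and 4909 ± 711 in the double mutant (-0.80, SE 0.29, limma adjusted p = 0.0622), with no overlap between groups. It passed in fits without miR-133b-/- 1 or 3 at the same difference. Arntl2 had a mean of 57.5 ± 10.3 scaled reads among Control libraries and 45.7 ± 20.3 in miR-133b-/-. Its mean was 69.6 ± 7.83 in mdx and 106 ± 38.3 in the double mutant, whose libraries gave 73.4, 78.9, 116 and 156. It was thus highest on average in the same genotype as Arntl, but its mdx and double mutant ranges overlapped (0.54, SE 0.32, limma adjusted p = 0.264). Within genotypes Klf15 deviated together with Per2 (r = 0.64, rho = 0.69, positive in all 4 genotypes; r = 0.56 without the pair of libraries farthest in Per2), a pair picked after its values were seen among 30.

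**Figure D5:**
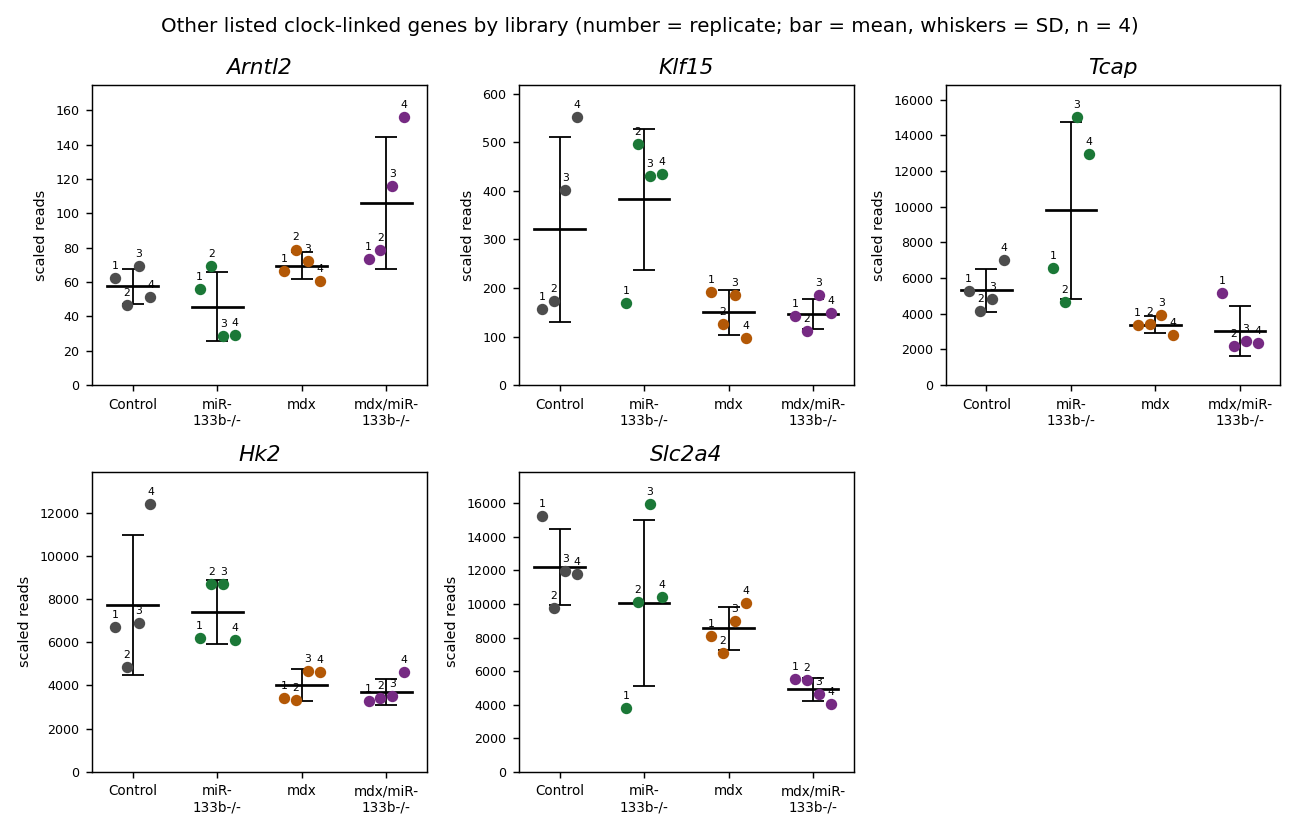
Scaled reads (y axis, linear, from 0) of 5 other listed clock-linked genes in each library, by genotype (x axis); points are libraries with their replicate number, bars are means and whiskers SD (n = 4). Tcap and Hk2 in mdx lie below all Control libraries, and Arntl2 is highest on average in mdx/miR-133b-/-.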

How the data were processed

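The authors deposited 1 table of 831 genes in 16 libraries. The submitters' processing notes name HISAT2, HTSeq and GRCm38; versions and use of strand are not stated there. The deposited values are a signal per gene, read counts multiplied by 1 factor per library (0.459 to 1), since dividing by it gave whole numbers, to within 0.001 read, for 100% of values. All 831 identifiers matched GENCODE M21. Libraries were grouped by the code in the title; the description field names another sample for 14 of 16.

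Log2(value + 1) was fitted with limma 3.58.1 in R 4.3.3, with 1 mean per group, all 16 libraries, a variance trend, no filter and Benjamini-Hochberg adjustment over 831 genes at 0.05, and checked on simulated data. p-values measure the spread between these libraries, which may be technical. Members and gene lists were chosen with earlier results of these data known. Named genes are the 6 members, listed genes of the fixed clock lists and the 3 nearest to Arntl and to the other 5 by r within genotypes. Lists for glucocorticoid response, immediate early genes and cell types were also fixed; of these the immediate early, adipocyte and satellite cell lists have no listed gene. One gene of the clock lists is not reported here. Alternatives covered scaling, pseudocount, filter, variance model, test, replicate block, groups fitted, GC and length, single libraries and the description field.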

Additional observations from a re-analysis of the deposited data

Results flagged for a closer look

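In 4 of the 48 sets of 4 libraries examined, 1 value stood far from the other 3, more than a gap test at 95% allows; chance flags about 1 in 20 such sets. Dbp in miR-133b-/- 2 was low, at 776 scaled reads. Klf15 in miR-133b-/- 1 was low, at 169 scaled reads, and Tcap in mdx/miR-133b-/- 1 was high, at 5134. The within-library ratio of Arntl to the opposite genes was high in mdx 3, at -0.26. The loss of miR-133b went with unlike differences in Dbp with and without the mdx mutation, and the difference of differences, -2.11 on the log2 scale, was called by limma; Dbp was chosen with this pattern known.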

How the results depend on the processing

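Counts of called genes moved by over 1.5 times in some settings. With the GC and length trend removed, limma called 55 genes in mdx/miR-133b-/- against mdx (162 as reported) and 5 in the difference of differences (8 as reported), where relative log expression factors gave 14 and a minimum mean of 100 gave 4. Leaving out single libraries gave 474 to 578 calls in mdx against Control (550 as reported), 0 in miR-133b-/- against Control, 49 to 197 in mdx/miR-133b-/- against mdx (49 without mdx/miR-133b-/- 4, 56 without mdx 3, 70 without mdx/miR-133b-/- 3, 71 without mdx 1, 84 without mdx 4) and 7 to 110 in the difference of differences (110 without miR-133b-/- 2, 15 without mdx/miR-133b-/- 1). Of the 5 further clock genes, 4 instead of 2 fell in mdx against Control with relative log expression factors or with only those groups fitted, 3 with upper quartile factors, 1 with the GC and length trend removed, and 1 to 3 when single libraries were left out (1 without Control 3, Control 4, mdx 2 or mdx 4); in mdx/miR-133b-/- against mdx 1 passed with only those groups fitted, and 0 to 1 without single libraries, as in the difference of differences. The cause was not tested.

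Grouped by the description field, which mixes the title groups, limma called 0 genes in each of the 4 comparisons counted here. Called log2 differences then turned sign in mdx against Control for Arntl (-0.089), Hlf (0.50), Ciart (0.80), Usp2 (0.25), Klf15 (0.76) and Hk2 (0.27), in mdx/miR-133b-/- against mdx for Arntl (-0.071), in mdx/miR-133b-/- against miR-133b-/- for Arntl (-0.23), Per2 (0.49), Dbp (0.15) and Hlf (0.14), and in the difference of differences for Dbp (0.077). Of the uncalled differences of the 6 clock genes, those of Per2 (0.98) and Dbp (0.069) in mdx against Control, Dbp in miR-133b-/- against Control (-0.38), Usp2 in mdx/miR-133b-/- against mdx (-0.18) and Arntl in the difference of differences (-0.14) turned sign too. No called difference of a clock gene named in the report turned sign under any other setting run.

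A fit with the replicate number as a replicate block gave 7 calls in the difference of differences, and of the calls of named clock genes 2 differed, both in mdx against Control: Per2 passed (-0.60) and Arntl did not (0.54). Same-numbered libraries of different groups did not deviate together (median r -0.07 over 24 pairs, from -0.28 to 0.25), and 1 of 16 had its closest library in its own number, so the numbers were not taken to pair samples. With a minimum mean of 100 Ciart has no value. The planned quasi-likelihood count test was not run; limma-voom on the recovered reads was. The library depth is unknown, and Ciart, at 29 to 347 reads, is the gene it limits most.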

Other observations

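Of 13 genes fixed as a glucocorticoid response, which also follows the time of day, 3 are listed: Klf15, Cdkn1a and Nfkbia. In mdx against Control, Klf15 fell as given above, Cdkn1a, a cell cycle inhibitor, rose (log2 difference 1.504, SE 0.37, limma adjusted p = 0.00223), and Nfkbia, an inhibitor of NF-kappa-B, stood at -0.60 (SE 0.28, adjusted p = 0.0638). None of the 3 passed limma's test in mdx/miR-133b-/- against mdx, where Nfkbia stood at -0.51 (SE 0.28, adjusted p = 0.219). Of all listed genes, 7.46% were called higher and 12.0% lower there, against 44.5% and 21.7% in mdx against Control. Nothing is read from calls among 3 genes. None of the 10 immediate early genes is listed.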
